A study of Mus musculus with 24 samples.

Results

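A set of 830 windows that hold only 1 or 2 CpG sites and lost part of their DNA 5-methylcytosine (5mC) signal in *Tet2*-KO mouse embryonic stem (mES) cells was examined. The signal came from MeDIP-seq, which enriches methylated DNA fragments with a 5mC antibody before sequencing, and reads were counted in windows of 100 bp. The windows were chosen from the authors' list of windows that differed between *Tet2*-KO and WT cells. A window was a member if it lay on one of 16 chromosomes (2 to 11, 13, 14 and 16 to 19), held 1 or 2 CpG sites, had a lower mean signal in *Tet2*-KO than in WT cells, and kept more than 3 reads in at least 1 *Tet2*-KO library. They made up 830 of the 14279 windows of the list (0.336% of the 4252847 windows tested by the authors) and of its 8026 windows on these chromosomes, and 356 of them held 1 CpG and 474 held 2. The choice used the *Tet2*-KO and WT values themselves, so that these values are given below as a description and without a test.

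The series comprised 24 MeDIP-seq samples of mES cells in 8 groups of 3, grown in serum with LIF and the inhibitors CHIR99021 and PD0325901. The members were chosen from WT and *Tet2*-KO cells, both transfected with a control siRNA (siNC). Both also had a counterpart transfected with siRNA against *Nsun2* (siNsun2), which encodes an RNA methyltransferase. WT and *Pspc1*-KO cells without siRNA were measured as immunoprecipitated (IP) and as input DNA, which is sequenced without the antibody. WT and *Tet2*-KO cells came from another laboratory, and the sources used here do not state from how many clones each genotype was grown. No input library of the *Tet2*-KO cells was analysed here, so that 5mC and the number of DNA copies cannot be told apart in that comparison.

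Cytosines followed by guanine are the main sites of DNA methylation in mammals. Most of the mouse genome is poor in CpG and heavily methylated, while CpG islands are dense in CpG and mostly free of methylation. TET2 oxidizes 5mC, and DNMT1 copies methylation to the new strand after replication. At imprinted genes a control region is methylated on only one parental allele. An IP fragment is much longer than a window, so that reads in a window with 1 CpG also come from fragments that carry methylated CpG sites next to it.

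The following reference sequences (GRCm38, the mm10 build, plus strand, 5′ to 3′) belong to members on which the results below turn, with CpG in capitals. The first 4 are the opening 300 bases of 4 of the longest uninterrupted runs of members, and the others are single windows chosen for their strong WT signal or their place in an imprinted gene. A CpG whose C is the last base of a window was counted for that window, and its C stands at the end of the line in small letters.
Dhx29 intron, chr13:112963901-112964200: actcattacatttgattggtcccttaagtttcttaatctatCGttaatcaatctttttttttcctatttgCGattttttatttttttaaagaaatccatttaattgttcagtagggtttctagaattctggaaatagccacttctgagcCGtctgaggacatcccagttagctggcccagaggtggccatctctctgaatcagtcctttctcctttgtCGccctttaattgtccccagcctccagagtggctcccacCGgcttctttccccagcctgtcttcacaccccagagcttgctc
Chromosome 13, outside genes, chr13:117308501-117308800: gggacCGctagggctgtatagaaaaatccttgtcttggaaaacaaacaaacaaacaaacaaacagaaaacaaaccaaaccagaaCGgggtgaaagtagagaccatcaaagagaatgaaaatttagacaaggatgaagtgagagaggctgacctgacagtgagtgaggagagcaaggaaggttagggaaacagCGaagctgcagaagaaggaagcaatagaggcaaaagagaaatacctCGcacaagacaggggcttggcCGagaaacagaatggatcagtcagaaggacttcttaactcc
Ift122 intron, chr6:115921601-115921900: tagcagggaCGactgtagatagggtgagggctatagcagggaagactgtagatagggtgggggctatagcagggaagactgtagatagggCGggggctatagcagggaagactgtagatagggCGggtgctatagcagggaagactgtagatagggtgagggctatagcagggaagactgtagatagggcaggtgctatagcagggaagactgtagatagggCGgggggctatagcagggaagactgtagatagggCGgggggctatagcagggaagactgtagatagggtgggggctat
Ddx47, with coding exon, chr6:135017801-135018100: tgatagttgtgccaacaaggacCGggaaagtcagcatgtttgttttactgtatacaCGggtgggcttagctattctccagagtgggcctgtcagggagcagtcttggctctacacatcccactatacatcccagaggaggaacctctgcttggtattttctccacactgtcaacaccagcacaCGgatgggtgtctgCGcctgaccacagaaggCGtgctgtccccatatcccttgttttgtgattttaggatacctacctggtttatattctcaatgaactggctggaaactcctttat
Tmem125 repeat, outside genes, chr4:118547701-118547800: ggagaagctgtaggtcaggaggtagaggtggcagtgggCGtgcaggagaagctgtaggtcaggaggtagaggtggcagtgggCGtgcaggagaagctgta
Cdc20b intron, chr13:113056601-113056700: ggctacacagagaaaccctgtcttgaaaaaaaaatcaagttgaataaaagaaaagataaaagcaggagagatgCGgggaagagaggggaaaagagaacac
Mest intron, chr6:30737701-30737800: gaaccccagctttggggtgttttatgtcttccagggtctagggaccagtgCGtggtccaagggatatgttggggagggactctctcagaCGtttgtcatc
Nnat intron, chr2:157560601-157560700: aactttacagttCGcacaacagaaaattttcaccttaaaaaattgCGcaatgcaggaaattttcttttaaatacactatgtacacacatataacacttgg
Zfp777 coding exon, chr6:48025401-48025500: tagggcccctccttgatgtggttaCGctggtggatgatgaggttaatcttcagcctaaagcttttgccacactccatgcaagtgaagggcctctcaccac

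Each of the 4 stretches of runs carried 5 CpG in 300 bases. The middle 32 bases of the windows of the *Dhx29* and *Ddx47* runs occur once in the reference, and those of the *Ift122* run up to 6 times. Those of the chromosome 4 window occur 8 times.

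The total number of reads recovered for the WT siNC libraries was 11.5, 13.3 and 15.4 M (mega, as in Mb), and for the *Tet2*-KO siNC libraries 8.92, 14.1 and 14.2 M. Replicates 2 and 3 of each of these groups differed by less than sampling noise over the list (chi-square per degree of freedom 0.953 in WT and 0.958 in *Tet2* KO), while replicate 1 differed from both, at 1.26 to 1.51. They were counted as 1 sample, which gives n = 2 for each SD. A log2 fold change before ± is the median over windows of the averaged signals, not a mean of libraries. Its SD is over the medians of the *Tet2*-KO libraries, each set against the WT mean. The value can therefore lie outside the library medians. SDs of log2 fold changes and of the summed signal leave out the spread of WT. The study calls the replicates of its genome-wide data biological, while the labels do not say whether these libraries came from separate cultures. SDs and p-values measure the spread between these libraries, which may be technical in part. In the *Tet2* gene itself, 5 windows of the list had 0 reads in all 3 *Tet2*-KO libraries and 5.21 to 15.8 RPKM (reads per kilobase of window, scaled to the library total) in WT. None of them was a member. Of all windows tested, 0.279% were listed as lower in *Tet2* KO and 0.0568% as higher.

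The members kept 24.8% of their WT signal in the median window. The median signal over the 830 windows was 33.0, 31.99 and 31.9 RPKM in the 3 WT libraries, and 7.85, 7.82 and 7.76 RPKM in the 3 *Tet2*-KO libraries. Medians of the 3 libraries of a genotype lay close together, and those of the 2 genotypes lay far apart. Every *Tet2*-KO library was below every WT library at 830 of the 830 members, as at 6103 of the 6103 loss windows of these chromosomes; the windows had been listed for this difference. On the log2 scale the median difference between *Tet2* KO and WT was -1.997 ± 0.05 (SD, n = 2), with an interquartile range from -2.47 to -1.57 and extremes of -5.99 and -0.65. The reads in members made up 0.543%, 0.563% and 0.566% of the WT libraries and 0.192%, 0.217% and 0.218% of the *Tet2*-KO libraries. The relative methylation score, which the MEDIPS software corrects for CpG density, had a median of 0.57 to 0.59 in the WT libraries and of 0.42 to 0.45 in the *Tet2*-KO libraries.

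**Figure D1:**
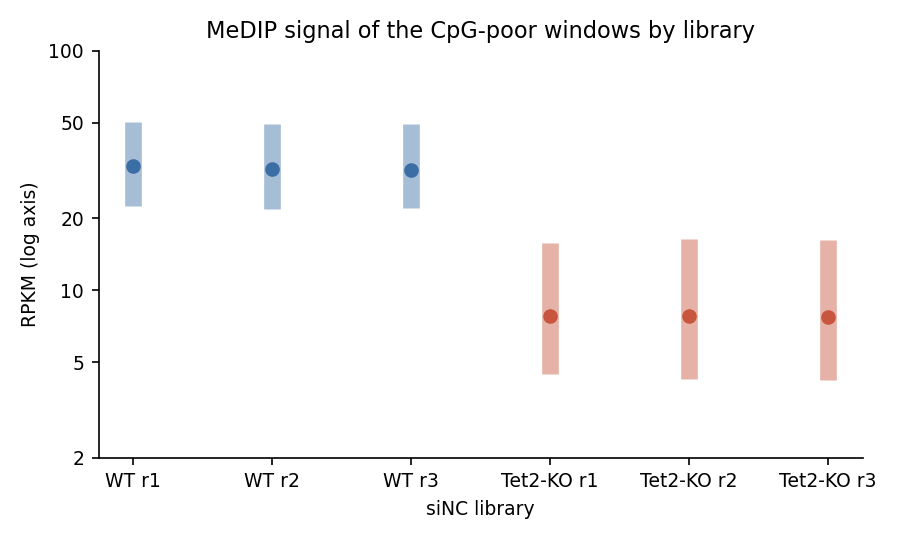
Signal of the 830 members in each siNC library, in RPKM on a log axis. Points are medians over windows and bars run from the lower to the upper quartile. The 3 WT medians lie between 31.9 and 33.0 RPKM and the 3 *Tet2*-KO medians between 7.76 and 7.85 RPKM.

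Summed over members and scaled to library totals, the *Tet2*-KO signal was 37.0% ± 3.26 of the WT signal (SD, n = 2). This sum rested in part on 4 windows of a repeat on chromosome 4, which held 34.6% of all WT reads in members and kept 46.7% of their signal. Without them the sum was 32.01%. Of the 830 members, 69 kept less than 12.5% of the WT signal, 352 kept 12.5 to 25%, 373 kept 25 to 50%, and 36 kept 50% or more. The size of the loss differed little by the number of CpG, with medians of -2.02 ± 0.10 at 1 CpG and -1.97 ± 0.01 at 2 CpG (SD, n = 2 each). The gap was wider by copies in the reference. The 455 single-copy members, whose middle 32 bases occur once in the reference, had a median log2 fold change of -2.12 ± 0.10, and the 375 members with further copies had one of -1.79 ± 0.02 (SD, n = 2 each). The aligner places a read that matches several positions at a single one of them, so that values of multi-copy members describe a family of copies.

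**Figure D2:**
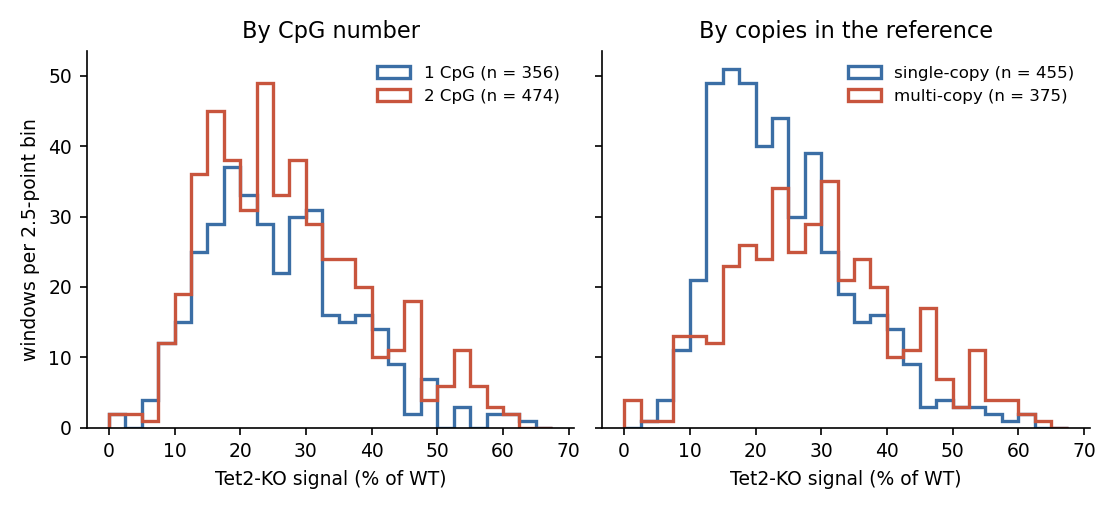
Signal left in *Tet2*-KO cells as percent of WT, in bins of 2.5 points, with the number of members on the vertical axis. The medians of the 356 members with 1 CpG and the 474 with 2 CpG are 24.4% and 25.3%, while the medians of the 455 single-copy and the 375 multi-copy members are 22.7% and 28.8%.

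The limit of 3 reads cut through a continuous range of values. At the 51 members whose highest *Tet2*-KO count was 4, the median signal was 16.7 RPKM in WT and 2.36 RPKM in *Tet2* KO. At the 82 windows just outside, whose highest count was 3, it was 15.3 and 1.45 RPKM. *Tet2*-KO replicate 1, the library with the fewest reads, had 3 reads or fewer at 206 members, against 82 and 68 members in replicates 2 and 3.

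The members were poor in CpG but their surroundings were not. A member held 1.57 CpG on average and the windows touching it on either side 3.12 and 3.06, whereas the windows that touch any reference window of 1 or 2 CpG on the same chromosomes held 0.904 on both sides. The median number of CpG in the 1100 bp centred on a member was 25, against 9 around all 8174190 such reference windows, of which 2.88% reached 25. Single-copy members showed the same form, with 2.74 and 2.78 CpG in the touching windows. A touching window of 3 or more CpG was present at 637 of the 830 members (76.7%). The dip at the centre is a product of the choice of windows with 1 or 2 CpG, while the flanks entered the choice only through the signal, to which neighbouring CpG contribute. The reference windows were not limited to those with IP signal, so that the contrast with them is in part fixed by the listing. The surroundings of the other listed windows of 1 or 2 CpG were also rich in CpG, with a median of 22 in 1100 bp around the 623 gains and of 18 around the 359 losses to 3 reads or fewer, so that this trait was not shown to be particular to partial loss.

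**Figure D3:**
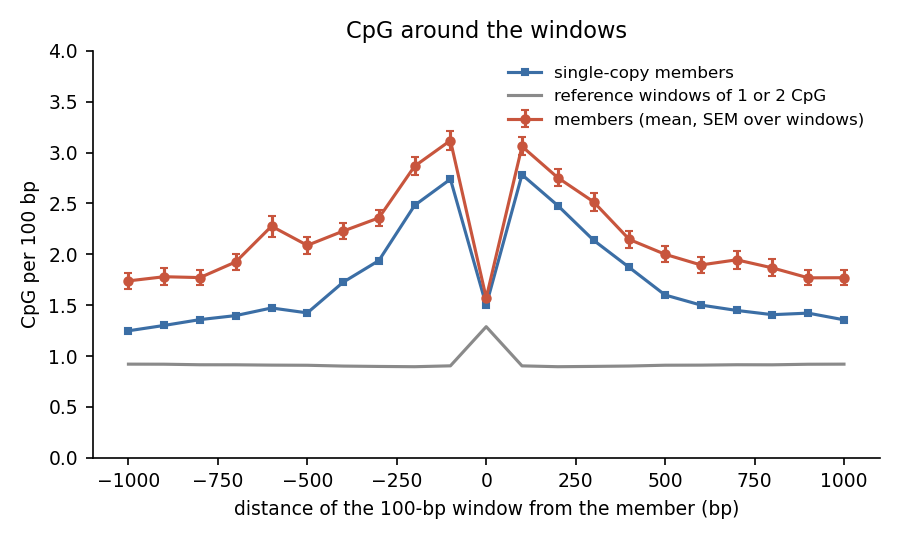
Mean number of CpG per 100 bp of reference sequence against the distance from the member in bp, for all 830 members (points with SEM over windows), for the 455 single-copy members and for all reference windows of 1 or 2 CpG on the same chromosomes. The flanks of members rise above 3 CpG beside the window and fall towards 1.74 and 1.77 at 1000 bp, while the reference stays near 0.9.

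The loss extended beyond the members. Of the windows touching a member, 473 on the left and 483 on the right were themselves in the list, and all of these were lower in *Tet2* KO. In total 713 members (85.9%) touched another listed loss window, and 539 (64.9%) touched one with 3 or more CpG. The median log2 fold change of the listed windows at 100, 200 and 300 bp to the right of a member was -2.02, -2.07 and -2.09, close to that of the members. Only neighbours listed for the same difference entered these medians, and a fragment longer than a window can reach both. Their direction and size are thus in part fixed by the listing and by shared reads. Joined to their listed neighbours, the members lay in 589 regions of loss with a median length of 300 bp, the longest being 3000 bp. Of these regions, 149 held members only and 440 also held other loss windows, and in 110 of the 440 the window with the highest WT signal was a member. There were 117 members that touched no listed loss window, and their median of -1.997 ± 0.06 (SD, n = 2) was that of the whole set. By *Tet2*-KO library their medians were closer to WT, at -1.89, -1.85 and -1.76. Over all members these were -1.99, -1.92 and -1.92.

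Members were gathered on a few chromosomes. Chromosome 13 held 286 (34.5%) of them with 5.91% of the reference windows of 1 or 2 CpG, chromosome 6 held 166 with 7.21%, and chromosome 17 held 91 (10.96%) with 4.69%. Chromosome 3 was at the other end, with 2 members and 7.53% of the reference windows. On chromosome 13, 225 of the 286 members were single-copy, against 70 of 166 on chromosome 6. Listed gains of any CpG number numbered 114 on chromosome 13 beside 869 losses, and 369 on chromosome 6 beside 833.

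**Figure D4:**
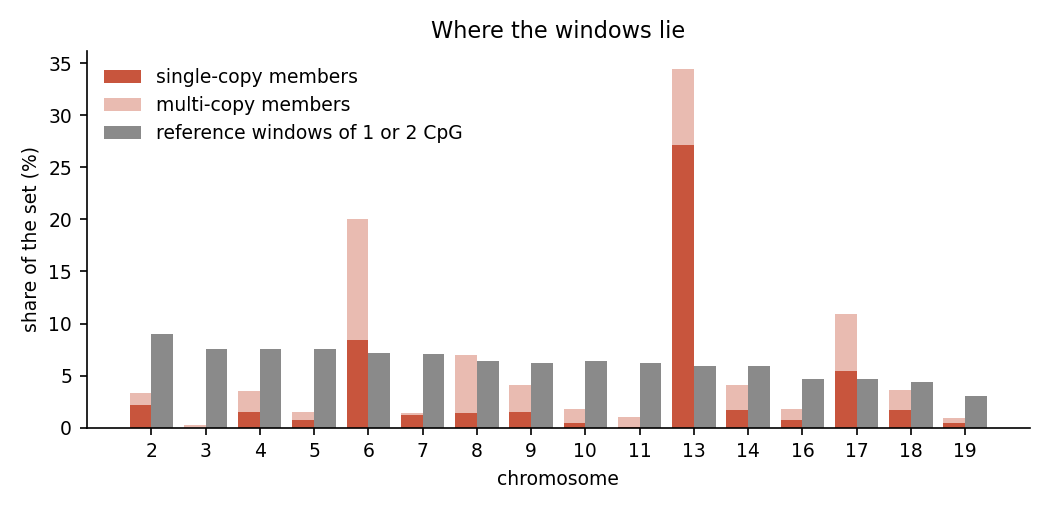
Share of the 830 members on each chromosome (red, with the multi-copy part in pale red) beside the share of all reference windows of 1 or 2 CpG on the 16 chromosomes (grey), in percent. Chromosome 13 holds 34.5% of members and 5.91% of reference windows.

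Within chromosomes the members formed blocks, taken here as neighbouring 1-Mb bins with at least 15 members each. The largest, at chr13:112184301-114733200, held 162 members, or 19.5% of all, of which 148 were single-copy. Its span held 406 listed losses of any CpG number and 5 listed gains. The median log2 fold change of its members was -2.26 ± 0.17 (SD, n = 2), and their median signal was 28.1 RPKM in WT and 5.89 RPKM in *Tet2* KO. It covered 21 protein-coding genes, and the genes with the most members were *Dhx29*, *BC067074*, *Arl15* and *Slc38a9*. A second block at chr13:117048401-117592000 held 41 members beside 97 losses and 0 gains, and another at chr13:100397701-100447900 held 16, of which 13 lay in *Naip1*. These blocks of chromosome 13 were mainly single-copy sequence.

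The blocks on the other chromosomes were repeats. The one at chr6:114497001-114629600 held 70 members outside any annotated gene, of which 1 was single-copy, with a median log2 fold change of -1.64 ± 0.08 (SD, n = 2). The one at chr8:123539501-123622700 held 35 members, none of them single-copy, with a median of 50 copies of their central bases and a median log2 fold change of -1.997 ± 0.25 (SD, n = 2). All 35 lay in introns of *Gm20388*, a long gene model, and within 1 kb of an annotated start. Outside the 5 blocks, the remaining 506 members had a median log2 fold change of -1.97 ± 0.03 (SD, n = 2). The blocks were drawn after the positions had been seen.

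Genes with many members repeated this pattern. The 6 with the most members were *Gm20388* (36 members), *Dhx29* (19), *Naip1* (13), *BC067074* (10), *Arl15* (9) and *Slc38a9* (8), and all but the first lie on chromosome 13. *Dhx29* encodes an RNA helicase of translation initiation. Averaged over its 19 members, all single-copy and 3 of them in exons, the signal was 23.6, 26.1 and 25.2 RPKM in the WT libraries and 3.89, 5.31 and 5.50 RPKM in the *Tet2*-KO libraries. The *Tet2*-KO libraries were all far below WT, for which the members had been listed, and the median log2 fold change over the 19 members was -2.50. *Naip1* encodes a sensor of bacterial proteins in the innate immune system. Its 13 members averaged 39.2, 40.2 and 43.1 RPKM in WT and 9.83, 8.80 and 11.2 RPKM in *Tet2* KO, a median log2 fold change of -1.94. *Slc38a9* encodes an amino acid transporter of the lysosome. Its 8 members averaged 24.4, 23.1 and 20.8 RPKM in WT and 5.46, 5.69 and 5.47 RPKM in *Tet2* KO, with a median of -2.12. *Arl15*, which encodes a small GTPase, varied more, with single members between -2.60 and -0.80 on the log2 scale.

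Most runs of touching members were single windows. The 830 members fell into 688 runs, of which 582 were single windows and 86 were pairs. The longest, with 8 windows, lay on chromosome 18, whose windows were counted but are not named here. Runs of 5 windows numbered 2 and runs of 4 windows 7. In the run in *Dhx29* (chr13:112963901-112964400, 5 windows with 8 CpG), the mean signal was 23.1, 27.4 and 29.2 RPKM in WT and 2.46, 4.41 and 6.35 RPKM in *Tet2* KO. That is 15.3% of the WT signal. The run outside genes on the same chromosome (chr13:117308501-117309000, 8 CpG) was stronger and kept more, with 114, 110 and 118 RPKM in WT and 45.1, 45.1 and 48.8 RPKM in *Tet2* KO, or 40.3%. The run in *Ift122* (chr6:115921601-115922000), a gene for transport in cilia, had 59.4, 59.8 and 61.9 RPKM in WT and 26.9, 31.8 and 24.2 RPKM in *Tet2* KO. The run in *Ddx47* (chr6:135017801-135018200, with coding sequence), a gene for an RNA helicase of ribosome assembly, had 46.8, 47.0 and 38.4 RPKM in WT and 14.3, 11.2 and 8.99 RPKM in *Tet2* KO. In each of the 4 runs the genotypes were separated by more than the spread within either. Genotypes did not overlap at 830 of the 830 members, which had been listed for this difference.

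A strong WT signal went with both deep and shallow loss. The strongest multi-copy member was the chromosome 4 window printed above, at chr4:118547701-118547800, with 7097.8, 8371.8 and 8334.9 RPKM in WT and 3140.4, 3958.6 and 4087.6 RPKM in *Tet2* KO. It lay outside genes, 3706 bp from the start of *Tmem125*. The strongest single-copy member lay beside it at chr4:118547001-118547100, with 257.6, 307.1 and 291.1 RPKM in WT and 118.8, 150.7 and 148.9 RPKM in *Tet2* KO. They kept 46.4% and 48.2% of the WT signal. An intron of *Cdc20b* on chromosome 13 kept less. Its window at chr13:113056601-113056700 had 166.5, 229.5 and 215.6 RPKM in WT and 30.3, 30.6 and 40.9 RPKM in *Tet2* KO, which left 17.0%. *Duxf3* encodes a transcription factor of the early embryo and has relatives in the same gene array. With replicates 2 and 3 counted as 1 sample, it held the single-copy member with the next highest mean WT signal. That mean was 200 RPKM, against 195 RPKM at the *Cdc20b* window, which was the higher one in WT replicates 2 and 3. The *Duxf3* member lay in an exon 62 bp from the start of the gene (chr10:58231901-58232000). It had 202, 202 and 194 RPKM in WT and 110, 124 and 121 RPKM in *Tet2* KO, which is a log2 fold change of -0.78.

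The extremes among single-copy members had unlike WT levels. The smallest losses were at a pair of windows outside genes (chr6:98889301-98889400 and chr6:98889501-98889600), 28535 and 28735 bp from the start of *Gm32381*, with log2 fold changes of -0.71 each. The first had 168, 177 and 185 RPKM in WT and 97.5, 120 and 111 RPKM in *Tet2* KO. The largest was in an intron shared by the models of *Nnat* and *Blcap*, with 20.8, 17.3 and 17.6 RPKM in WT and 0, 0.71 and 2.82 RPKM in *Tet2* KO, and a log2 fold change of -4.29. Next came an intron of the potassium channel gene *Kcnk12* at -3.98 and a window of the second chromosome 13 block at -3.79. Across the 830 members the log2 fold change was closer to 0 where the WT signal was higher (Spearman's rho 0.62), a description in which both measures share the WT values and the listing.

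Single-copy members in exons of protein-coding genes, or within 1 kb of their starts, numbered 53. With chromosome 18 left out, and apart from *Duxf3* and *Ddx47*, those with the highest WT signal lay in *Tmem267*, *Xpc*, *Rad18* and *Tmem171*. *Xpc* encodes the protein that recognizes DNA damage in nucleotide excision repair. Its window in coding sequence (chr6:91499701-91499800) had 82.4, 72.3 and 97.1 RPKM in WT and 41.5, 46.2 and 44.5 RPKM in *Tet2* KO, so that 52.0% was left. *Rad18* encodes a ubiquitin ligase of DNA damage tolerance. Its window (chr6:112649501-112649600) had 74.6, 54.2 and 68.4 RPKM in WT and 25.8, 24.9 and 16.2 RPKM in *Tet2* KO, or 34.1%. The exon windows of *Tmem267* and *Tmem171* kept 53.5% and 33.5%.

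Imprinted genes held members with a deep loss. A member lay in 7 of the 45 listed imprinted genes on these chromosomes (15.6%; *Mest*, *Blcap*, *Gnas*, *Grb10*, *Nnat*, *Usp29* and *Zfp777*), against 182 of all 18149 protein-coding genes (1.00%). These genes held 9 members, all single-copy, with a median difference of -2.88 on the log2 scale beside -2.12 over single-copy members, and 7 of the 9 were within 1 kb of an annotated start. *Mest*, which encodes a hydrolase and is expressed from the paternal allele, held 4 of them. Its window printed above (chr6:30737701-30737800, in an intron 299 bp from a *Mest* start) had 34.7, 30.9 and 27.4 RPKM in WT and 3.36, 2.84 and 2.82 RPKM in *Tet2* KO. Its next window (chr6:30738501-30738600) had 30.4, 28.6 and 31.9 RPKM in WT and 6.72, 4.26 and 4.23 RPKM in *Tet2* KO. Around them 65 and 68 CpG lay within 1100 bp, and 37 and 33 around the other *Mest* members. Over the 9 members in imprinted genes this number ranged from 11, in *Grb10*, to 68, beside the median of 25 over all members.

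The exon window of *Zfp777*, a zinc finger gene, had 28.6, 24.1 and 24.8 RPKM in WT and 2.24, 3.55 and 1.41 RPKM in *Tet2* KO, which is a log2 fold change of -3.44. *Grb10*, which encodes an adaptor protein that restrains growth, held a window 20 bp from a start with 20.8, 22.6 and 19.5 RPKM in WT and 3.36, 2.84 and 2.12 RPKM in *Tet2* KO, which is a log2 fold change of -2.80. The *Nnat* window had 4.61% of the WT signal left, the *Mest* windows just described 9.70% and 18.1%, and the *Zfp777* and *Grb10* windows 8.90% and 13.9%. Genotypes did not overlap in any of the 9, as in none of the 830 members, which had been listed for this difference. The counts behind the *Tet2*-KO values were small, at 0, 1 and 4 reads for *Nnat*. A window with 3 reads or fewer in each *Tet2*-KO library was not a member, so that windows of imprinted genes that fell to this level were not counted here.

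The other lists are read beside the same 1.00% of protein-coding genes. Among germline genes that DNA methylation keeps silent, 1 of 22 (4.55%) held members. This was *Ddx4*, which encodes a germ cell RNA helicase and lies in the first chromosome 13 block, with 3 intronic members and a median log2 fold change of -2.76. None lay within 1 kb of its start. No member lay in the 22 pluripotency genes, and 1 lay in the 24 genes of the DNA methylation and TET machinery (4.17% of the genes). It was an intronic window of *Dnmt1* (chr9:20909501-20909600), 571 bp from an annotated start, with 55.5, 46.7 and 50.8 RPKM in WT and 26.9, 22.8 and 20.5 RPKM in *Tet2* KO. It kept 46.5%, more than any of the 9 members in imprinted genes.

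Clustered protocadherins, whose many promoters lie in a row, held 7 members in 20 overlapping gene models of 56 (35.7%), with a median of -2.73. A member counted once for each model over it, so that this share cannot be set beside those of the other lists. The protocadherin members lie on chromosome 18 and are not named. Of the 1091 olfactory receptor genes 1 (0.0917%) held members, *Olfr568* with 2 coding windows at -1.84 and -1.90. Of the 325 vomeronasal receptor genes 1 (0.308%) held a member, *Vmn2r97*, and of the 367 zinc finger genes 5 (1.36%) held 7 members with a median of -1.69. Among these, the windows in *Zfp943* and *Zfp986* had 12 to 281 copies in the reference, while that in *Zfp629* was single-copy, with 43.4, 37.6 and 33.2 RPKM in WT and 11.2, 14.2 and 11.99 RPKM in *Tet2* KO.

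The annotation of the members was set beside that of CpG-poor sequence in general. Of the members 434 (52.3%) lay outside annotated genes, 321 (38.7%) in introns and 75 (9.04%) in exons, compared with 48.4%, 44.9% and 6.64% of the reference windows of 1 or 2 CpG. Starts of transcription lay within 1 kb of 101 members (12.2%) and of 6.83% of the reference windows. Of these 101, 35 were the repeats on chromosome 8, and outside the blocks the share was 9.68%. Repeats marked by lower case in the reference made up at least 50% of the window at 367 members (44.2%) and at 26.4% of the reference windows. The differences outside genes and in repeats turned in single-copy members, of which 45.3% lay outside genes and 19.8% were repeat sequence by this measure, below the reference windows, which were not divided by copies. In repeats and near starts the other listed windows of 1 or 2 CpG also exceeded the reference windows. Of the losses to 3 reads or fewer and of the gains, 44.3% and 49.9% were in repeats, and 10.03% and 15.6% within 1 kb of a start. Outside genes lay 47.1% and 39.6% of them, below the reference windows and unlike the members. Members were richer in G and C, at 49.1% on average against 43.7%. Both neighbours of the CpG were A or T at 23.2% of the CpG in members and at 32.2% of those in the reference windows.

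Copy number in the reference differed between CpG classes of partial loss. The share of single-copy windows was 54.8% among the members, 27.4% among the 1957 windows of partial loss with 3 to 5 CpG, and 20.6% among the 1869 with 6 or more. Repeat sequence ran the other way, at 44.2%, 68.5% and 78.6%. The median log2 fold change of these classes was -1.997, -2.05 and -2.26, and within single-copy windows it was -2.12, -2.04 and -2.26. All 3 were chosen by the same difference, so that their sizes were not tested against each other. The 359 windows of 1 or 2 CpG that fell to 3 reads or fewer had a lower WT signal, with a median of 13.1 RPKM against 32.3 RPKM for the members, and 61.0% of them were single-copy.

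The loss of PSPC1, an RNA-binding protein of nuclear paraspeckles, was measured in libraries that the choice of members had not used. The authors listed 307 windows (0.00571% of 5378176 tested) as changed between *Pspc1*-KO and WT cells, and 9 members were among them. This was 1.08% of the members and 2.93% of the *Pspc1* list, while 112 of the 5273 other loss windows of these chromosomes (2.12%) were in it. Of the 9, 8 were lower and 1 was higher in *Pspc1* KO, where 0.00463% of the tested windows were listed as lower and 0.00108% as higher. No member was in the list of 244 windows for siNsun2 in *Tet2*-KO cells or in that of 31 windows for siNsun2 in WT cells. Of the 5273 other loss windows 5 (0.0948%) were in the former and 0 in the latter, so that 0 members is near this background. The values of members in the siNsun2 libraries were not analysed here.

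**Figure D5:**
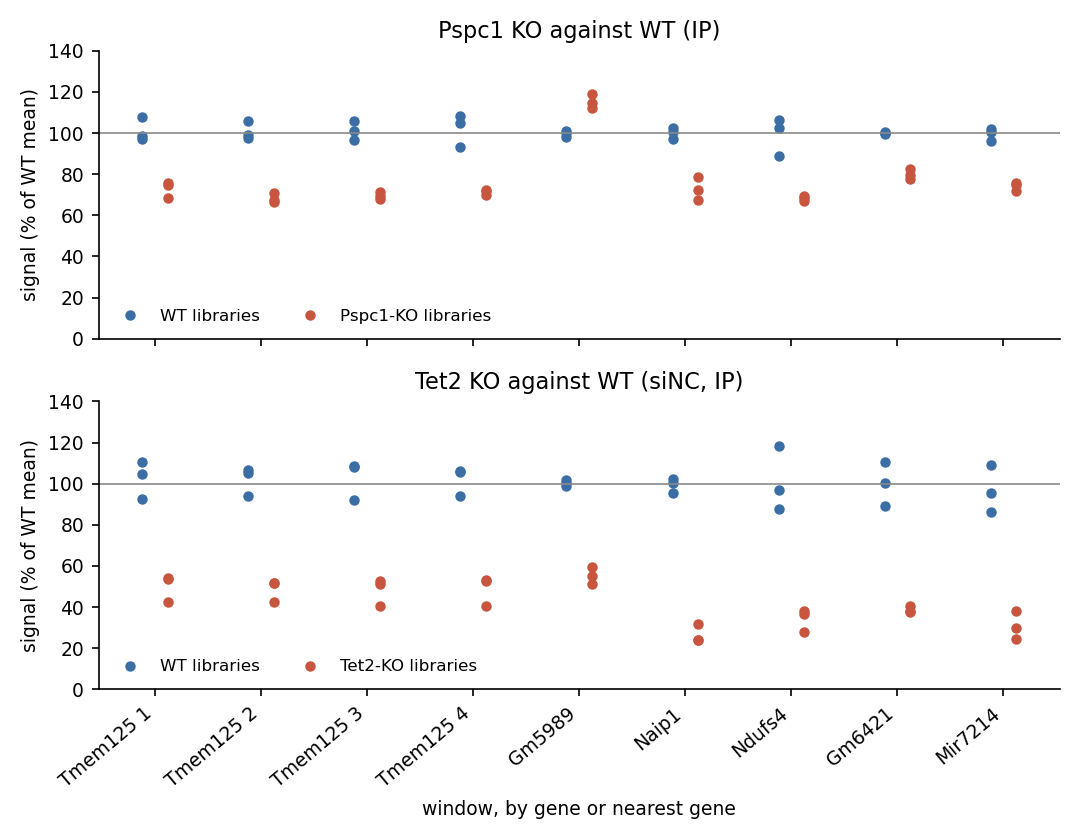
MeDIP signal (percent of the WT mean, vertical axis) of the 9 members that were also in the *Pspc1* list, named by the gene they lie in or nearest to. Each point is 1 IP library, scaled to library totals, with *Pspc1* KO in the upper panel and *Tet2* KO in the lower one. At 8 windows the *Pspc1*-KO libraries lie below the WT libraries, a direction that 4 of the 8 keep with TMM factors and 2 with DESeq2 size factors. At *Gm5989* the *Pspc1*-KO libraries lie above.

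Of these 9, 4 were the windows of the chromosome 4 repeat near *Tmem125*. At chr4:118547701-118547800 the IP signal was 5961.3, 5696.4 and 5429.9 RPKM in WT and 3813.4, 3903.3 and 4021.7 RPKM in *Pspc1* KO. The groups did not overlap, as at 9 of the 9 members. The log2 fold change was -0.54 ± 0.04 (SE), with an adjusted p of 6.29e-11 in edgeR's quasi-likelihood test over the 307 windows. It was -0.046 with TMM factors and 0.0015 with DESeq2 size factors. The windows had been listed on these same libraries. Here and below, neither the p-values nor the lack of overlap is therefore independent evidence. Input DNA without antibody gave 190.4, 204.1 and 199.2 RPKM in WT and 156.1, 152.9 and 142.5 RPKM in *Pspc1* KO at the same window. Input was lower in *Pspc1* KO without overlap at each of the 4 windows of the repeat. At chr4:118547401-118547500 it was 90.4, 93.2 and 92.5 RPKM in WT and 60.0, 69.5 and 63.7 RPKM in *Pspc1* KO. The IP signal there was 2997.6, 2808.7 and 2765.6 RPKM in WT and 1888.6, 1908.2 and 2008.1 RPKM in *Pspc1* KO. WT IP replicates 1 and 2 differed by less than sampling noise over the list (chi-square per degree of freedom 0.940), and all 3 entered the fit. No pair of *Pspc1*-KO IP libraries differed beyond sampling noise either, at 0.783 to 1.01. The SEs and p-values may thus measure technical spread in part. The part of input in the IP difference was not tested.

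On chromosome 13, the window in the *Naip1* intron (chr13:100415401-100415500) had 111.5, 117.8 and 115.6 RPKM in WT and 83.1, 77.7 and 90.7 RPKM in *Pspc1* KO. Its log2 fold change was -0.46 ± 0.07 (SE), with an adjusted p of 8.52e-07. The window 20892 bp from the start of *Ndufs4* (chr13:114409101-114409200) had 82.01, 97.95 and 94.2 RPKM in WT and 62.9, 63.9 and 61.7 RPKM in *Pspc1* KO, at -0.55 ± 0.08 (SE) and an adjusted p of 6.14e-07. Both are single-copy and lie in chromosome 13 blocks. The window at chr13:117308901-117309000, the last window of the run outside genes, had 316, 318 and 319 RPKM in WT and 263, 254 and 247 RPKM in *Pspc1* KO, at -0.32 ± 0.04 (SE) and an adjusted p of 3.51e-08. The window at chr17:27290101-27290200 had 147, 141 and 149 RPKM in WT and 111, 105 and 109 RPKM in *Pspc1* KO, at -0.44 ± 0.06 (SE) and an adjusted p of 1.53e-07. Input reads at these windows were few. They numbered 9, 5 and 11 in WT and 2, 4 and 4 in *Pspc1* KO at the *Naip1* window, and 6, 4 and 5 in WT and 2, 1 and 1 in *Pspc1* KO at chr13:117308901-117309000. The groups overlapped in input at the other windows, with 2, 0 and 5 reads in WT and 1, 0 and 2 in *Pspc1* KO at chr13:114409101-114409200, and 0, 2 and 4 in WT and 1, 0 and 3 in *Pspc1* KO at chr17:27290101-27290200. Their part in the IP difference was not tested.

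The exception was an exon of *Gm5989* (chr6:23159201-23159300, 3 copies), with 531, 520 and 537 RPKM in WT and 609, 596 and 631 RPKM in *Pspc1* KO, a log2 fold change of 0.21 ± 0.03 (SE) with an adjusted p of 3.52e-06. Its input signal overlapped between the groups, at 10.4, 9.76 and 5.40 RPKM in WT and 9.70, 14.8 and 12.4 RPKM in *Pspc1* KO, and its part was not tested. In *Tet2* KO the IP signal of this window was lower, at 230, 212 and 197 RPKM against 382, 387 and 392 RPKM in WT. All 9 were called, as were 100% of the 307 windows (81.1% lower and 18.9% higher), because the list had been chosen on these libraries, and these p-values are therefore not independent evidence. The direction of the 8 lower windows depended in part on the scaling to library totals. Of the 8, 4 stayed lower with TMM factors and 2 with DESeq2 size factors. These factors were estimated on a list of which 81.1% was lower, so that a turn under them cannot show which direction holds. With TMM factors or DESeq2 size factors, which centre the listed windows and moved their median log2 fold change from -0.56 to -0.07 and -0.02, 2 of the 9 were called, the window in *Gm5989* and that at chr13:117308901-117309000, and the latter was then higher in *Pspc1* KO, at 0.17 and 0.22.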

How the data were processed

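MeDIP-seq libraries of mES cells were used as deposited. The authors trimmed reads with Trimmomatic 0.39, aligned them to mm10 with Bowtie2 2.4.1, removed duplicates with Picard and analysed windows of 100 bp with MEDIPS and edgeR, with a minimum row sum of 10, no copy-number term and Bonferroni adjustment. They deposited windows with an adjusted p-value below 0.1. The deposited counts are whole reads per window, the deposited RPKM values are scaled by the authors to library totals, the deposited relative methylation score is a fraction from 0 to 1, and the deposited score CF is the number of CpG. The authors' own fold changes and p-values were not reported; their p-values served only to recover how many windows were tested.

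Library totals were recovered from counts and RPKM, at 8.92 to 15.4 M reads for the siNC libraries, 20.4 to 39.8 M for the Pspc1 IP libraries and 10.5 to 14.8 M for inputs. Log2 fold changes were computed on RPKM + 0.1. Replicate pairs that a chi-square test of windows with at least 20 reads did not tell apart, in groups where another pair differed, were counted as 1 sample. CpG, lower-case repeats and copies of the middle 32 bases came from GRCm38, and genes from GENCODE M21. CF equalled the CpG number of the reference in 100% of the compared windows.

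The members were described without a test, since the Tet2 comparison chose them. Pspc1 KO was compared with WT on deposited counts by edgeR 4.0.16 (R 4.3.3) with the quasi-likelihood test over the 307 listed windows, scaled to library totals, with Benjamini-Hochberg adjustment at 0.05; DESeq2 1.42.0 and TMM factors were alternatives. On simulated counts of 3070 windows for this comparison, 200 of 200 windows changed 4-fold were recovered, with 8 false calls. The 9 members in the list had log2 fold changes of only -0.56 to 0.21, and all fitted windows had been listed as changed. The simulation therefore does not show how well such differences are called. Same-numbered WT and Pspc1-KO libraries did not deviate together. Python 3.11.15, pandas 2.3.3, numpy 2.4.6 and scipy 1.17.1 were used. The members and gene lists were chosen with earlier results of these data known. Named windows were the longest runs, the strongest WT signals, the extremes of log2 fold change, the genes with the most members, the protein-coding genes with the strongest single-copy member in an exon or near a start, and members in the gene lists (up to 4 genes a list with values), leaving out chromosome 18. Members in the Pspc1 list are all named or counted.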

Additional observations from a re-analysis of the deposited data

How the results depend on the processing

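The number of members was 474 with 2 CpG only and 455 with single-copy windows only, and 780 to 830 when each library was left out in turn. The median log2 fold change was -1.86 with a pseudocount of 1 RPKM and -2.12 in single-copy windows, and ranged from -2.005 to -1.93 without 1 library. The pooled signal was 28.7% in single-copy windows, 24.8% as the median over windows and 32.01% without the chromosome 4 repeat, an alternative chosen after seeing the data, like those outside the blocks. It ranged from 36.3% to 39.3% without 1 library. In single-copy windows, 45.3% lay outside genes, 19.8% were repeat sequence and 59.6% touched a loss window of 3 or more CpG. Other limits gave 17.5% within 2 kb of a start, 33.1% with a repeat limit of 90%, 60.1% single-copy by the middle 50 bases, and 82.0% with a loss window of 3 or more CpG within 500 bp.

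Of the 9 members in the Pspc1 list, 2 were called with TMM factors and 2 with DESeq2, and 9 under each of the other settings, including each library left out (9 to 9). Over the list 204 and 166 of the 307 windows were then called, 108 lower and 96 higher with TMM and 69 lower and 97 higher with DESeq2. With TMM factors the log2 fold change turned to 0.035 at chr4:118547001-118547100, 0.030 at chr13:100415401-100415500, 0.17 at chr13:117308901-117309000 and 0.054 at chr17:27290101-27290200. With DESeq2 it turned to 0.078, 0.082, 0.22 and 0.11 at the same windows, to 0.0015 at chr4:118547701-118547800 and to 0.022 at chr4:118548301-118548400. Both factors were estimated from the 307 listed windows alone, of which 249 were lower, and the cause was not tested further. Same-numbered libraries correlated at 0.0051, -0.10 and -0.15, so that the numbers did not pair them; with a replicate block 9 of 9 members and 307 windows were called.

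Depth limited the lowest values: members at 3 reads or fewer numbered 206 in Tet2-KO replicate 1.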
